A study of Danio rerio with 5 samples.

Results

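Chromatin regulators were taken here as the genes whose symbols carry the names of known families of chromatin enzymes and binding proteins. These were the DNA methyltransferases (dnmt) and Tet enzymes, ezh, eed and suz12 of the Polycomb repressive complex PRC2, the chromobox genes (cbx) and the high mobility group genes (hmga, hmgb, hmgn). The histone deacetylases (hdac), lysine demethylases (kdm) and methyltransferases (kmt), arginine methyltransferases (prmt), remodeller subunits named smarc and chd helicases made up the rest. The rule picked 115 of 30837 gene symbols, which stood in 356 of 75805 transcript rows of the count table, and the row with the highest mean count represented each gene. For 31 of the 115, rows lay in more than 1 place of the count table. Whether such rows are copies of similar sequence was not examined, and how reads that map to several places were treated is not given. Of the 115, 110 had enough reads for a test against the adult library and 107 for the test between the embryonic populations. The 5 members tested nowhere were cbx6b, cbx7b, chd5, hdac7b and prmt8b.

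The data were RNA-seq counts of 5 libraries of zebrafish epidermal cells collected by fluorescence-activated sorting. Adult basal cells came from the caudal fin of Tg(itgb4:mcherry) fish and made 1 library, and the age of those fish is not given in the labels. Embryonic basal precursors came from embryos 1 day post fertilization that also carried Tg(itgb4:mcherry) (2 libraries), in which the promoter of the hemidesmosome integrin gene itgb4 drives the red reporter. Embryonic periderm cells, of the outer skin layer, came from embryos of the same age (2 libraries). Their line carried krt4:creERt2, in which the promoter of a periderm keratin gene drives an inducible recombinase. It further carried the colour-switch reporter Olactb:loxP-dsRed2-loxP-egfp and, as a green lens label, cryaa:egfp. All lines shared a Tubingen-derived background. Adult and embryonic cells differed in age and in body site, and periderm and basal cells in the line, and these cannot be told apart from cell type or stage. No label ties a replicate to its own clutch or sort, so the p-values may cover technical spread alone.

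Chromatin regulators set how accessible DNA is. DNA methyltransferases add methyl groups to cytosines and Tet enzymes oxidize them, Polycomb and heterochromatin proteins keep genes silent, and deacetylases and methyltransferases write or erase marks on histone tails. Remodellers slide or eject nucleosomes with the energy of ATP. In mammalian epidermis, Dnmt1, Ezh2 and Hdac1 are known for their part in keeping basal progenitors dividing and undifferentiated.

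The row counts summed to 5580007 in the adult library, 9451663 and 8831154 in embryonic basal replicates 1 and 2, and 7976968 and 12975986 in embryonic periderm replicates 1 and 2. Levels are given as CPM, the usual read counts relative to library size, with the library sizes scaled by TMM factors. A level of 3 counts corresponded to 1.38 CPM in the adult library and to between 0.338 and 0.567 CPM in the embryonic ones, for counting error only. The median count of a member was 36 in the adult library and between 128 and 196 in the embryonic libraries, and 11 members had 0 counts in the adult library against 2 to 6 in the embryonic ones. The sort markers followed their labels in part. For itgb4 the levels were 3916 CPM in the adult library, 488 and 498 in embryonic basal and 9.67 and 41.5 in periderm cells, whereas krt4 had 197 CPM in the adult library but 23984 and 18242 in embryonic basal and 60643 and 31111 in periderm cells. The sums of the whole marker lists followed these genes only in part. The basal markers (10 genes) summed to 50446 CPM in the adult library, 4402 and 2171 in embryonic basal and 7134 and 3899 in periderm cells. The periderm markers (14 genes, with krt5 in both lists) summed to 43374 CPM in the adult library, 35951 and 25463 in embryonic basal and 104024 and 56912 in periderm cells, and against embryonic basal cells 7 of them were higher and 3 lower in the adult library. Within that sum krt5 made up 31015 and icn 10736 CPM in the adult library. Gene by gene, 7 of the 10 basal markers had higher and 3 lower values in embryonic basal than in periderm cells (1 called higher). All 14 periderm markers had lower values in that comparison, 10 of them called. Against periderm, 11 periderm markers were called lower and 2 higher in the adult library, and 8 basal markers were called higher and none lower. Other cell types differed between the libraries as well. Muscle markers (12 genes) summed to 6.43 CPM in the adult library, with acta1b, mylpfa, ckma, myog, desma, tpma and mylz3 at 0, and to between 18789 and 43643 CPM in every embryonic one. Neural markers (12 genes) summed to 163 CPM in the adult library, with elavl3, elavl4, gng3, sox2, gfap, dla and nova2 at 0, against 371 and 525 CPM in embryonic basal and 1957 and 1067 CPM in periderm cells. Mesenchyme markers (12 genes) summed to 2794 CPM in the adult library, with pdgfra, prrx1b and twist1b at 0, against 7703 and 6414 CPM in embryonic basal and 1683 and 2569 CPM in periderm cells. Leukocyte markers (11 genes in the table) summed to 4262 CPM in the adult library, of which cd74a and cd74b held 3157 and 1017 and ptprc 20.2, with lyz at 0, against 2.65 and 11.5 CPM in embryonic basal and 144 and 220 CPM in periderm cells. Pigment cell markers (12 genes) summed to 67.0 CPM in the adult library, with mitfa, dct and tyr at 0, against 65.4 and 149.6 CPM in embryonic basal and 1316 and 963 CPM in periderm cells. Blood and vessel markers (11 genes in the table) summed to 0.459 CPM in the adult library, with all but alas2 at 0, against 74.8 and 183 CPM in embryonic basal and 711 and 1070.2 CPM in periderm cells. The part of these cell types in the results below was not tested.

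Most of the chromatin regulators that differed between adult and embryonic basal cells were lower in the adult cells. edgeR's quasi-likelihood test (adjusted p under 0.05, Benjamini-Hochberg over all genes) called 34 of the 110 tested members, 9 higher and 25 lower in the adult library. Over all 18143 genes tested, 23% were called, 11.6% higher and 11.4% lower, and the members' shares were 8.18% and 22.7%. In the adult comparisons a gene could enter the test through 1 library, and genes that entered through the adult library alone can be called only higher. How many of all genes entered so was not counted, so the shares called higher, here and below, are not fully alike. The median log2 fold change was -1.05 over the members (-1.02 with the groups at 0 counts placed at their bound of 3 counts) and -0.59 over all genes. Scaled by total counts alone, 4 members were higher and 50 lower, beside 29.8% of all genes called in either direction. The median of all genes was -1.38 in that setting, a shift of -0.78. How all genes split by direction there is not given, so the members' split on total counts has no like share beside it. The members' median relative to that of all genes was -0.45 with TMM factors, -0.45 with RLE factors and -0.46 on total counts. A change of factors moves all genes of a comparison by nearly the same amount, so this agreement was given in advance. For each of the 25 members called lower, the adult value lay below all 4 embryonic libraries, and for each of the 9 called higher it lay above all 4. The members were called on these same libraries, so this order describes them and adds no support. Against embryonic periderm, 12 members were higher and 32 lower (10.9% and 29.1%), beside 28.6% of all genes called, 14.2% higher and 14.4% lower. On total counts 7 members were higher and 54 lower against periderm, beside 38.2% of all genes called in either direction. The median of all genes was -1.66 there. Both comparisons rest on the same adult library, which is assumed to vary like the embryonic ones. In bulk counts, fewer cells of a type and less RNA per cell cannot be told apart.

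**Figure D1:**
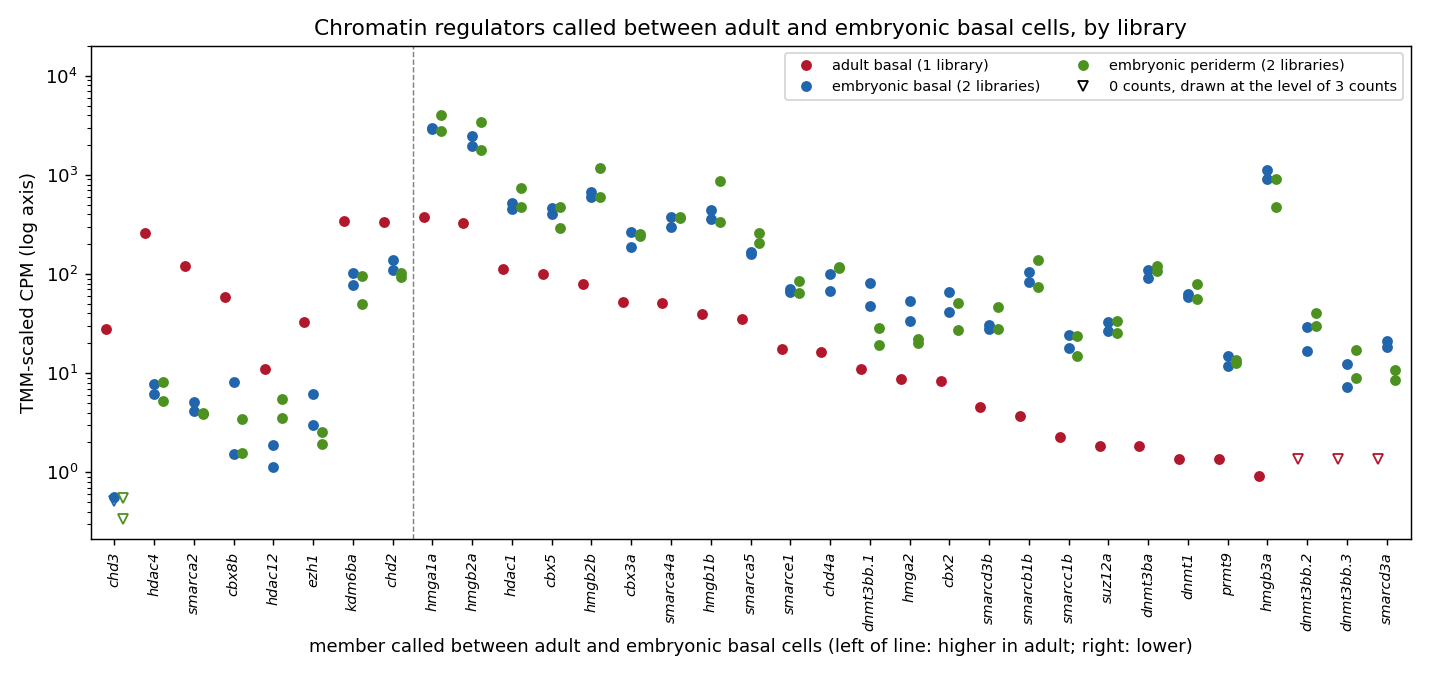
TMM-scaled CPM (log axis) of members called between adult and embryonic basal cells (8 of the 9 higher, all 25 lower), 1 point per library, with the adult library first in each column; triangles mark 0 counts, drawn at the level of 3 counts. In every column the adult point lies outside the range of the 4 embryonic points, above it for the 8 genes left of the line (hdac4 at 258 CPM) and below it for the 25 on the right (hmgb3a at 0.918 CPM).

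DNA methyltransferase genes were mostly lower in adult basal cells. Of the 7 dnmt genes, 5 were called lower against embryonic basal cells and 4 against periderm, and none higher. These were 71.4% and 57.1% of the class, beside 11.4% and 14.4% of all genes called lower. The maintenance enzyme gene dnmt1, whose product copies methylation onto new DNA strands, had 1.38 CPM in the adult library (3 counts), 59.3 and 62.2 CPM in embryonic basal and 80.1 and 56.1 CPM in periderm cells. The adult level was far below every embryonic library, while the embryonic populations overlapped. Embryonic basal cells held 44.1 times the adult level of dnmt1 (95% Poisson interval 15.1 to 214; log2 fold change of adult over embryonic basal -5.44, SE 0.79, adjusted p = 0.00370). Poisson intervals here and below cover the counting error of the lower group alone. A relative of the mammalian de novo enzyme DNMT3B, dnmt3ba, had 1.84 CPM in the adult library against 91.5 and 110.2 CPM in embryonic basal and 108 and 120.5 CPM in periderm cells. It was 54.3-fold lower in adult than in embryonic basal cells (log2 fold change -5.76, SE 0.72, adjusted p = 0.00220).

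Further DNMT3B relatives went the same way. The dnmt3bb.2 and dnmt3bb.3 genes had 0 counts in the adult library. For dnmt3bb.2 the embryonic levels were 16.8 and 29.3 CPM in basal and 40.9 and 30.2 CPM in periderm cells, which makes it at least 16.7-fold lower in adult than in embryonic basal cells (adjusted p = 0.00820). For dnmt3bb.3 they were 7.18 and 12.5 CPM in basal and 17.2 and 9.02 CPM in periderm cells, at least 7.15-fold lower in adult than in embryonic basal cells (adjusted p = 0.0358). The third, dnmt3bb.1, had 11.02 CPM in the adult library, 80.5 and 48.0 CPM in embryonic basal and 19.3 and 28.3 CPM in periderm cells. It was 5.82-fold lower against embryonic basal cells (adjusted p = 0.0278) and did not pass against periderm (log2 fold change -1.12, adjusted p = 0.210). Against embryonic basal cells, the call of dnmt3bb.1 was lost without embryonic basal replicate 1 (adjusted p = 0.074) and with all rows of a gene summed (adjusted p = 0.0522), and that of dnmt3bb.3 without embryonic basal replicate 2 (adjusted p = 0.0602).

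The DNMT3A relatives were not called. In the adult library dnmt3ab had 35.3 CPM, within the embryonic range of 47.6 and 35.1 CPM in basal and 19.3 and 20.6 CPM in periderm cells (log2 fold change -0.23, SE 0.51, adjusted p = 0.765 against embryonic basal). Its paralogue dnmt3aa had 4.13 CPM in the adult library and between 1.70 and 6.20 CPM in the embryonic ones (adjusted p = 0.602). Per kilobase of transcript, dnmt3ab made up 52.3% of the summed level of the 6 dnmt3 genes in the adult library, 13.8% and 11.1% in embryonic basal and 7.16% and 7.45% in periderm cells. By the same measure dnmt3ba made up 2.91% in the adult library, 28.4% and 37.2% in embryonic basal and 43.0% and 46.6% in periderm cells. For dnmt3bb.1 the share was 32.5% in the adult library, 46.5% and 30.2% in embryonic basal and 14.3% and 20.4% in periderm cells. The leading de novo enzyme transcript thus differed between the adult and the periderm libraries. In embryonic basal cells dnmt3bb.1 led in replicate 1 and dnmt3ba in replicate 2. Of the 3 tet genes, whose products oxidize methylcytosine, none was called in any comparison with all libraries and TMM factors. These 3 stand beside 23% of all genes called against embryonic basal cells and 28.6% against periderm. For tet2 the level was 64.7 CPM in the adult library, 22.7 and 53.0 CPM in embryonic basal and 16.4 and 24.7 CPM in periderm cells (log2 fold change 0.77, SE 0.60, adjusted p = 0.378 against embryonic basal, and log2 fold change -0.0789 on total counts). Against periderm its log2 fold change was 1.65 (SE 0.60, adjusted p = 0.0725), and it was called higher in 1 of 11 alternatives, without embryonic basal replicate 2 (adjusted p = 0.0304). For tet3 it was 15.1 CPM in the adult library, 18.3 and 66.7 CPM in embryonic basal and 51.3 and 72.4 CPM in periderm cells (adjusted p = 0.225 against embryonic basal). Against periderm its log2 fold change was -2.03 (SE 0.84, adjusted p = 0.104), and it was called lower in 3 of 11 alternatives, on total counts (adjusted p = 0.0284) and without embryonic basal replicate 1 (adjusted p = 0.0377) or 2 (adjusted p = 0.0232). At tet1 the adult library had 4.59 CPM and the embryonic ones at most 2.82 CPM (adjusted p = 0.320).

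PRC2, which places the repressive Polycomb methyl mark on histones, had members called in both directions. The structural subunit gene suz12a had 1.84 CPM in the adult library, 32.5 and 26.6 CPM in embryonic basal and 25.5 and 33.7 CPM in periderm cells. It was 15.9-fold lower in adult than in embryonic basal cells (log2 fold change -3.99, SE 0.79, adjusted p = 0.0115). Its paralogue suz12b, with rows in 3 places, had 5.51 CPM in the adult library and between 5.998 and 14.6 CPM in the embryonic ones (adjusted p = 0.789). The catalytic subunit gene ezh1, known from non-dividing mammalian cells, had 32.6 CPM in the adult library, 3.02 and 6.17 CPM in embryonic basal and 2.55 and 1.92 CPM in periderm cells. It was 7.02-fold higher in adult than in embryonic basal cells (log2 fold change 2.81, SE 0.67, adjusted p = 0.0217) and 14.7-fold higher than in periderm (adjusted p = 0.00646).

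The other catalytic subunit gene, ezh2, typical of dividing cells, had 17.4 CPM in the adult library, 55.2 and 64.1 CPM in embryonic basal and 85.9 and 54.7 CPM in periderm cells. That difference passed against periderm (4.02-fold lower, adjusted p = 0.0324) and missed the threshold against embryonic basal cells (log2 fold change -1.77, SE 0.56, adjusted p = 0.0555). The mark-reading subunit gene eed had 36.3 CPM in the adult library and between 38.9 and 99.4 CPM in the embryonic ones (adjusted p = 0.597). Against embryonic basal cells the ezh1 call was lost without embryonic basal replicate 1 (adjusted p = 0.0886) and on total counts (adjusted p = 0.0746). Against periderm the ezh2 call was lost without periderm replicate 1 (adjusted p = 0.0793).

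The Polycomb chromobox genes encode the readers of that mark in the complex PRC1, and they too were called in both directions. Higher in the adult library was cbx8b, with rows in 3 places, at 58.8 CPM in the adult library, 8.13 and 1.54 CPM in embryonic basal and 3.47 and 1.58 CPM in periderm cells (12.2-fold higher than embryonic basal, adjusted p = 0.0193). Its paralogue cbx8a, at 31.2 CPM in the adult library, 16.4 and 7.54 CPM in embryonic basal and 9.12 and 9.81 CPM in periderm cells, did not pass (log2 fold change 1.38, adjusted p = 0.146). In the opposite direction, cbx2 had 8.26 CPM in the adult library, 65.2 and 41.5 CPM in embryonic basal and 50.9 and 27.5 CPM in periderm cells (6.44-fold lower than embryonic basal, adjusted p = 0.0303). The most uneven of the group was cbx7a. It had 542 CPM in the adult library, 482 and 38.7 CPM in the embryonic basal replicates and 59.5 and 18.95 CPM in the periderm replicates, so that its embryonic basal libraries stood 12.5-fold apart.

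The cbx7a difference between adult and embryonic basal cells did not pass (log2 fold change 1.06, SE 1.14, adjusted p = 0.524) except without embryonic basal replicate 1 (log2 fold change 3.77, adjusted p = 0.0185). Against periderm it was 13.9-fold higher in the adult library (adjusted p = 0.0425). That call was lost without periderm replicate 1 (adjusted p = 0.0848) or 2 (adjusted p = 0.167), with every gene of at least 1 count kept (adjusted p = 0.0559) and with all rows of a gene summed (adjusted p = 0.0711). For cbx2 the calls were lost without embryonic basal replicate 1 (log2 fold change -2.36) and, against periderm, without periderm replicate 1 (log2 fold change -1.73). The cbx2 call against periderm held in 7 of 11 alternatives. It was also lost with RLE factors (adjusted p = 0.0541), with every gene of at least 1 count kept (adjusted p = 0.0521) and with all rows of a gene summed (adjusted p = 0.0667). For cbx8b the call against periderm was lost without periderm replicate 2 (adjusted p = 0.0511). The low gene cbx6a had 0 counts in the adult library and at most 6.24 CPM elsewhere and was not called.

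The chromobox genes of the HP1 class encode readers of the heterochromatin methyl mark, and cbx5 and cbx3a were called lower in adult basal cells. At cbx5 the adult library had 99.6 CPM, embryonic basal 469 and 405 CPM and periderm cells 472 and 290.0 CPM (4.38-fold lower than embryonic basal, log2 fold change -2.13, SE 0.56, adjusted p = 0.0299). At cbx3a the adult library had 52.3 CPM, embryonic basal 187 and 268 CPM and periderm cells 242 and 253 CPM (4.34-fold lower, adjusted p = 0.0248). In both, the adult library lay apart from all embryonic ones, while the embryonic populations overlapped. With 21.1 CPM in the adult library, 89.9 and 55.7 CPM in embryonic basal and 50.5 and 23.7 CPM in periderm cells, cbx1a did not pass (adjusted p = 0.0909). Log2 fold changes of 0.79 for cbx3b and 0.95 for cbx1b did not pass (adjusted p = 0.356 and 0.440). The cbx5 call was lost without embryonic basal replicate 1 (adjusted p = 0.0534) and, against periderm, without periderm replicate 1 (adjusted p = 0.113), whereas that of cbx3a held in each alternative tried.

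High mobility group proteins, which bend DNA or bind nucleosomes and open chromatin, were the most abundant members in embryonic cells. Per kilobase, hmgb2a, hmga1a and hmgn2 were the highest 3 members in all 4 embryonic libraries, and hmgb2a also led in the adult library. The 12 hmga, hmgb and hmgn genes together took 0.0784% of gene counts in the adult library, against 0.874% and 0.978% in embryonic basal and 1.55% and 0.866% in periderm cells. All 12 had a negative log2 fold change in both adult comparisons, as had 10772 and 11033 of all 18143 genes. Of the 12, 6 were called lower against embryonic basal cells and 8 against periderm. Of all genes tested, 11.4% and 14.4% were called lower in these comparisons. Among the alternatives the sign turned for hmgb1a alone, against embryonic basal cells without embryonic basal replicate 1 (0.0592).

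The Hmgb genes encode DNA-bending proteins with paired HMG boxes. The widest gap was at hmgb3a, which had 0.918 CPM in the adult library (2 counts), 1114 and 913 CPM in embryonic basal and 913 and 479 CPM in periderm cells. Embryonic basal cells held 1104 times the adult level (95% Poisson interval 306 to 9114; adjusted p = 0.00139). Its paralogue hmgb3b had 38.1 CPM in the adult library, 84.3 and 78.1 CPM in embryonic basal and 250.2 and 119.6 CPM in periderm cells. It passed against periderm (4.85-fold lower, adjusted p = 0.0276) and was not called against embryonic basal cells. The most abundant, hmgb2a, had 326 CPM in the adult library, 2468 and 1952 CPM in embryonic basal and 3380.0 and 1799 CPM in periderm cells (6.77-fold lower than embryonic basal, adjusted p = 0.0292). For hmgb2b the values were 79.9 CPM in the adult library, 678 and 604 CPM in embryonic basal and 1164 and 601 CPM in periderm cells (8.02-fold lower, adjusted p = 0.0160). For hmgb1b they were 39.9 CPM in the adult library, 438 and 360.0 CPM in embryonic basal and 870.2 and 332 CPM in periderm cells (9.98-fold lower, adjusted p = 0.0185). Periderm replicate 1 was the highest library for hmgb1b, hmgb2a, hmgb2b and hmgb3b. Leaving out that library ended the hmgb2a calls (adjusted p = 0.0669 against embryonic basal and 0.104 against periderm) and the hmgb3b call (adjusted p = 0.0724). Leaving out periderm replicate 2 also ended the hmgb2a calls (adjusted p = 0.0765 and 0.0586).

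The Hmga genes encode AT-hook proteins typical of embryonic cells. At hmga1a the adult library had 380.1 CPM, embryonic basal 2952 and 2884 CPM and periderm cells 3978 and 2765 CPM (7.68-fold lower than embryonic basal, log2 fold change -2.94, SE 0.70, adjusted p = 0.0214). At hmga2 it had 8.72 CPM, against 33.3 and 53.3 CPM in embryonic basal and 20.3 and 22.1 CPM in periderm cells. The hmga2 gene was 4.95-fold lower than in embryonic basal cells (adjusted p = 0.0353) and did not pass against periderm (adjusted p = 0.156). With 0 counts in the adult library and between 2.06 and 8.03 CPM in the embryonic ones, hmga1b passed narrowly against periderm (at least 5.04-fold lower, adjusted p = 0.0492). That call held in 4 of 11 alternatives. Among others it was lost with RLE factors, with every gene of at least 1 count kept and with all rows of a gene summed. Of the nucleosome-binding Hmgn genes, hmgn2 had 244 CPM in the adult library, 1039 and 1082 CPM in embryonic basal and 2047 and 969.9 CPM in periderm cells (adjusted p = 0.0534 against embryonic basal and 0.0244 against periderm). Neither hmgn7 nor hmgn3 was called. The hmga1a calls did not hold without periderm replicate 1 (adjusted p = 0.0735 against embryonic basal and 0.0941 against periderm) or 2 (adjusted p = 0.0786 and 0.0679). For hmga2 the call ended without embryonic basal replicate 2 (adjusted p = 0.0989) and with rows summed (adjusted p = 0.0531), and for hmgn2 without periderm replicate 1 (adjusted p = 0.102). The hmga1b call was lost on leaving out any single embryonic library (adjusted p = 0.0699 and 0.0586 for embryonic basal replicates 1 and 2, 0.0758 and 0.0568 for periderm replicates 1 and 2).

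**Figure D2:**
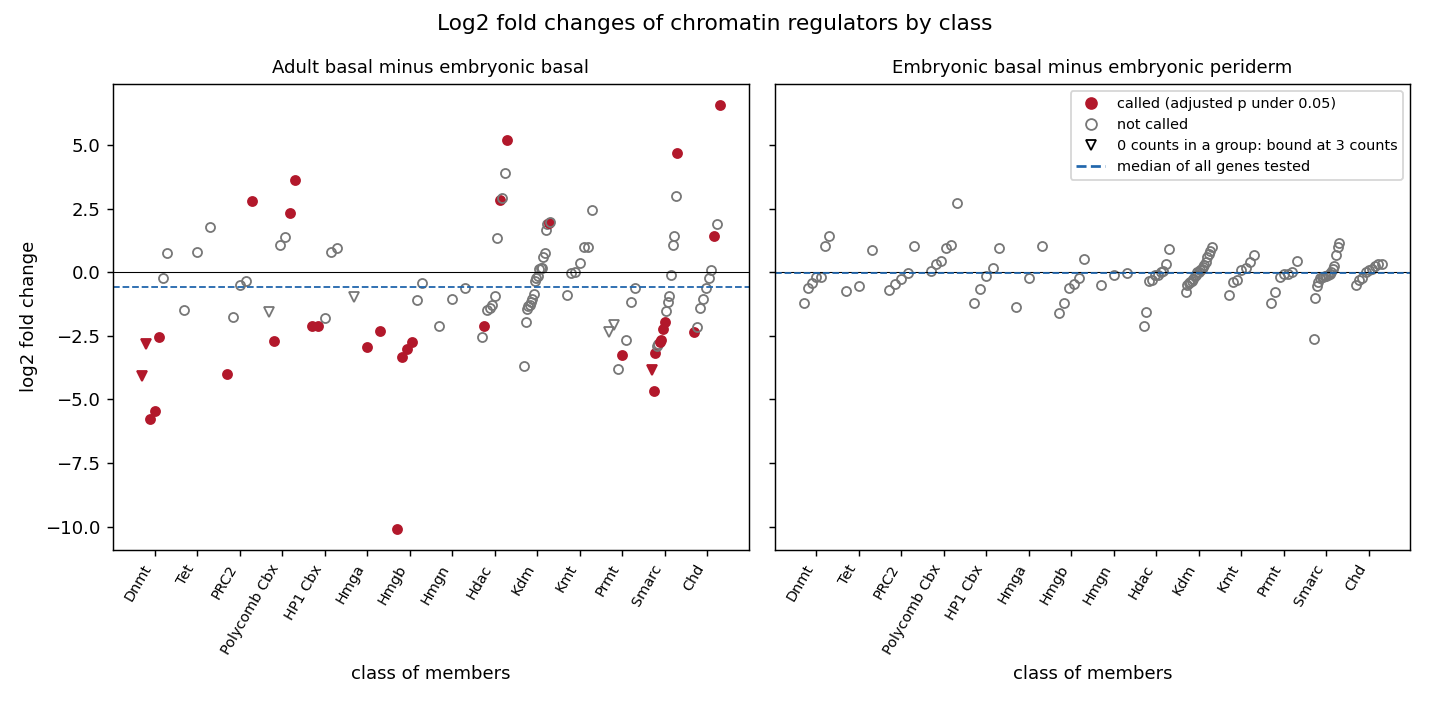
Log2 fold changes of every tested member by class, adult basal minus embryonic basal on the left and embryonic basal minus embryonic periderm on the right; filled red points passed the test, triangles are bounds for groups at 0 counts, and the dashed line is the median of all genes tested (-0.59 and -0.02). The Dnmt, Hmga, Hmgb and Smarc classes lie mostly below the line on the left, and every Hmgn and Prmt point lies below it. Kdm spreads around that line, Kmt lies mostly above it, and no point on the right is filled.

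Among the histone deacetylases, hdac4 was called higher and hdac1 lower in the adult library against both embryonic populations. The class IIa gene hdac4, whose product shuttles between nucleus and cytoplasm in mammals, had 258 CPM in the adult library, 6.24 and 7.71 CPM in embryonic basal and 8.21 and 5.30 CPM in periderm cells. It was 36.9-fold higher in adult than in embryonic basal cells (log2 fold change 5.21, SE 0.50, adjusted p = 0.00107) and 38.6-fold higher than in periderm (adjusted p = 0.000894). The class I gene hdac1, whose product works in several corepressor complexes, had 112 CPM in the adult library, 526 and 451 CPM in embryonic basal and 743 and 472 CPM in periderm cells (4.36-fold lower than embryonic basal, adjusted p = 0.0308). The gene of the nuclear receptor corepressor enzyme, hdac3, had 16.5 CPM in the adult library and between 43.2 and 52.7 CPM in the embryonic ones and did not pass (adjusted p = 0.0748 and 0.0555). At the edge of the threshold, hdac12 had 11.02 CPM in the adult library, 1.13 and 1.89 CPM in embryonic basal and 5.47 and 3.50 CPM in periderm cells (7.15-fold higher than embryonic basal, adjusted p = 0.0494). That call held in 3 of 11 alternatives. It was lost without each embryonic library (adjusted p = 0.152 and 0.0867 without embryonic basal replicates 1 and 2, 0.0619 and 0.0578 without periderm replicates 1 and 2) and on total counts (adjusted p = 0.136). For hdac1 the calls ended without embryonic basal replicate 1 (adjusted p = 0.0549) and, against periderm, without periderm replicate 1 (adjusted p = 0.0639).

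Lysine demethylases remove histone methyl groups, and few of their genes were called. Of 20 kdm genes, 1 was higher against embryonic basal cells and 2 against periderm, and none was lower. Those were 5% and 10% of the class, beside 11.6% and 14.2% of all genes called higher. The shares of all genes called lower were 11.4% and 14.4%. The median log2 fold change of the class against embryonic basal cells was -0.19, and it was 0.02 with RLE factors and -0.95 on total counts. On total counts 5 were lower and none higher, beside 29.8% of all genes called in either direction and a median of all genes of -1.38. The gene of a Polycomb mark demethylase, kdm6ba, had 339.7 CPM in the adult library, 77.3 and 103 CPM in embryonic basal and 50.2 and 94.8 CPM in periderm cells (3.77-fold higher than embryonic basal, log2 fold change 1.91, SE 0.50, adjusted p = 0.0301). Its paralogue kdm6bb, at 79.4 CPM in the adult library, 48.8 and 96.0 CPM in embryonic basal and 27.6 and 58.5 CPM in periderm cells, overlapped the embryonic range (adjusted p = 0.893). The heterochromatin mark demethylase gene kdm4aa had 32.6 CPM in the adult library, 5.10 and 11.3 CPM in embryonic basal and 5.47 and 3.72 CPM in periderm cells (7.16-fold higher than periderm, adjusted p = 0.0177; adjusted p = 0.0641 against embryonic basal). Its paralogue kdm4ab gave a log2 fold change of -1.31 (adjusted p = 0.174). The abundant members kdm1a and kdm5c, both encoding histone demethylases, had 84.0 and 104 CPM in the adult library, against 171 to 256 CPM and 128 to 136 CPM in embryonic basal cells, with neither called (adjusted p = 0.109 and 0.628). For kdm6ba the calls ended without embryonic basal replicate 1 (adjusted p = 0.107) and on total counts (adjusted p = 0.149), and against periderm without periderm replicate 1 (adjusted p = 0.0654) and on total counts (adjusted p = 0.0821). That of kdm4aa ended without periderm replicate 2 (adjusted p = 0.069) and on total counts (adjusted p = 0.0707).

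None of the 7 kmt2 genes, which encode the methyltransferases of active promoters and enhancers, was called in any comparison outside the alternatives named below. These 7 stand beside 23% of all genes called against embryonic basal cells and 28.6% against periderm. The nearest was kmt2ca, with 45.4 CPM in the adult library, 3.21 and 13.4 CPM in embryonic basal and 8.03 and 12.3 CPM in periderm cells (log2 fold change 2.44, SE 0.76, adjusted p = 0.0525). It did pass with RLE factors, with DESeq2, with the stricter filter and without embryonic basal replicate 2. Against periderm kmt2ca passed without embryonic basal replicate 1 or 2. At kmt2bb the adult library had 70.2 CPM, embryonic basal 35.9 and 34.4 CPM and periderm cells 34.3 and 28.4 CPM (adjusted p = 0.149 against embryonic basal). Against periderm kmt2bb did not pass (adjusted p = 0.0885) except with the stricter filter (log2 fold change 1.35, adjusted p = 0.0444). With 29.4 and 26.6 CPM in the adult library, kmt2a and kmt2d differed from embryonic basal cells by 0.98 and 0.36 on the log2 scale (adjusted p = 0.374 and 0.654), and kmt2d by -0.46 on total counts.

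Each of the 7 tested of 8 arginine methyltransferase genes had negative log2 fold changes in both adult comparisons, as had 10772 and 11033 of all 18143 genes. Of the 7, 1 passed against embryonic basal cells and 3 against periderm. Those were 14.3% and 42.9% of the tested genes, beside 11.4% and 14.4% of all genes called lower. At prmt9 the adult library had 1.38 CPM (3 counts), embryonic basal 11.9 and 14.9 CPM and periderm cells 13.5 and 12.6 CPM, so that embryonic basal cells held 9.74 times the adult level (95% Poisson interval 3.33 to 47.2; adjusted p = 0.0389). The main symmetric enzyme gene in mammals, prmt5, had 1.84 CPM in the adult library, 14.6 and 9.25 CPM in embryonic basal and 24.1 and 16.2 CPM in periderm cells (10.8-fold lower than periderm, adjusted p = 0.0262; adjusted p = 0.0727 against embryonic basal). With 0 counts in the adult library, prmt7 had 10.0 and 3.94 CPM in embryonic basal and 19.5 and 12.7 CPM in periderm cells and was at least 11.7-fold lower than periderm (adjusted p = 0.0203). Against embryonic basal cells prmt7 gave an adjusted p of 0.0591 and was called lower in 7 of 11 alternatives (adjusted p from 0.0246 to 0.129 over all 11). The main asymmetric enzyme gene in mammals, prmt1, was the most abundant of the class and stayed nearest to the embryonic range. It had 314 CPM in the adult library, 532 and 428 CPM in embryonic basal and 416 and 582 CPM in periderm cells (log2 fold change -0.61, SE 0.50, adjusted p = 0.405). For prmt3 the log2 fold change was -1.19 (adjusted p = 0.148). The prmt9 call against embryonic basal cells did not hold without embryonic basal replicate 1 (adjusted p = 0.0638) or 2 (adjusted p = 0.0904), nor the prmt5 call without periderm replicate 1 (adjusted p = 0.0522).

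The smarc genes encode subunits of SWI/SNF (BAF), ISWI and related remodellers. Of 17 tested, 7 were lower and 1 higher against embryonic basal cells, and 9 lower and 2 higher against periderm. Against embryonic basal cells these were 41.2% and 5.88%, beside 11.4% and 11.6% of all genes. Against periderm they were 52.9% and 11.8%, beside 14.4% and 14.2%. The genes of the alternative BAF motors were called in opposite directions. On one side, smarca2 had 120.3 CPM in the adult library, 4.16 and 5.14 CPM in embryonic basal and 3.83 and 3.95 CPM in periderm cells (25.7-fold higher than embryonic basal, log2 fold change 4.68, SE 0.51, adjusted p = 0.00147). On the other, smarca4a had 50.5 CPM in the adult library, 301 and 376 CPM in embryonic basal and 379 and 368 CPM in periderm cells (6.70-fold lower than embryonic basal, log2 fold change -2.74 with SE 0.53, adjusted p = 0.0106). Both calls held in each alternative tried, and smarca2 has rows in 2 places. The ISWI motor gene smarca5 had 34.9 CPM in the adult library, 160.4 and 165 CPM in embryonic basal and 258 and 207 CPM in periderm cells (4.67-fold lower, adjusted p = 0.0191). The core BAF subunit gene smarcb1b had 3.67 CPM in the adult library, 83.3 and 104 CPM in embryonic basal and 137 and 74.6 CPM in periderm cells (25.3-fold lower, adjusted p = 0.00545). Its paralogue smarcb1a, at 12.4 CPM in the adult library and between 28.6 and 42.7 CPM in the embryonic ones, did not pass (adjusted p = 0.104).

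Further BAF subunit genes were lower in the adult library too. At smarcd3a it had 0 counts, against 18.5 and 21.1 CPM in embryonic basal and 8.58 and 10.8 CPM in periderm cells, at least 14.4-fold lower than embryonic basal (adjusted p = 0.00925). The levels of smarcc1b, smarcd3b and smarce1 were 2.30, 4.59 and 17.4 CPM in the adult library, 9.10-fold, 6.36-fold and 3.93-fold lower than in embryonic basal cells (adjusted p = 0.0305, 0.0304 and 0.0330). The more abundant smarcc1 paralogue, smarcc1a, had 88.1 CPM in the adult library, 182 and 217 CPM in embryonic basal and 212 and 233 CPM in periderm cells and did not pass (adjusted p = 0.107). In contrast smarcd2 was higher in the adult library against periderm, at 95.0 CPM in the adult library, 64.2 and 25.5 CPM in embryonic basal and 20.98 and 19.3 CPM in periderm cells (4.72-fold, adjusted p = 0.0242; adjusted p = 0.213 against embryonic basal). Outside BAF, smarcad1b had 1.38 CPM in the adult library (3 counts), 9.64 and 11.1 CPM in embryonic basal and 20.8 and 20.8 CPM in periderm cells, so that periderm held 15.1 times the adult level (95% Poisson interval 5.16 to 73.2; adjusted p = 0.0149). Against embryonic basal cells smarcad1b did not pass (adjusted p = 0.0532) and was called lower in 6 of 11 alternatives. Its paralogue smarcad1a, with rows in 3 places, had 1.84 CPM in the adult library, 12.3 and 13.9 CPM in embryonic basal and 16.97 and 13.4 CPM in periderm cells (8.16-fold lower than periderm, adjusted p = 0.0339; adjusted p = 0.0515 against embryonic basal).

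Several of these calls were lost when a library was left out, with log2 fold changes of about the same size. Without embryonic basal replicate 1 the calls of smarcc1b (log2 fold change -2.998, adjusted p = 0.0716), smarcd3b (-2.78, adjusted p = 0.0532) and smarce1 (-2.07, adjusted p = 0.059) against embryonic basal cells were lost, that of smarce1 also without embryonic basal replicate 2 (adjusted p = 0.0554). With all libraries the log2 fold changes were -3.19 for smarcc1b, -2.67 for smarcd3b and -1.97 for smarce1. Against periderm, leaving out periderm replicate 1 ended the calls of smarcc1b (adjusted p = 0.0537), smarcad1a (adjusted p = 0.0565) and smarcd2 (adjusted p = 0.0788). Leaving out periderm replicate 2 ended those of smarce1 (adjusted p = 0.053) and smarcd2 (adjusted p = 0.0834). With rows summed, smarcc1b (against embryonic basal, adjusted p = 0.0505) and smarcad1a (against periderm, adjusted p = 0.0528) were not called, and on total counts smarcd2 was not (adjusted p = 0.09).

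Of the chd helicases, chd3 and chd4a encode alternative motors of the NuRD complex, and they too were called in opposite directions. In the adult library chd3 had 28.0 CPM (61 counts), against 0.567 and 0 CPM in embryonic basal and 0 CPM in both periderm libraries (104 times the level of the 3 counts in embryonic basal, 95% Poisson interval 35.5 to 504; adjusted p = 0.00660). DESeq2 did not call it (adjusted p = 0.368, and 0.156 against periderm), and its rows lie in 2 places. It had enough reads for the test through the adult library alone, and the filter of 5 CPM in 2 libraries removed it. The direction of its call thus rests on the library through which it entered. In the adult library chd4a had 16.5 CPM, against 68.0 and 99.1 CPM in embryonic basal and 119 and 115 CPM in periderm cells (5.05-fold lower than embryonic basal, log2 fold change -2.34, SE 0.55, adjusted p = 0.0212). Its paralogue chd4b, with 9.64 CPM in the adult library, passed against periderm (5.12-fold lower, adjusted p = 0.0364) and not against embryonic basal cells (adjusted p = 0.0555). The remodeller gene chd2 had 333 CPM in the adult library, 138 and 111 CPM in embryonic basal and 93.2 and 102 CPM in periderm cells (2.68-fold higher than embryonic basal, adjusted p = 0.0464). Known for its part in neural crest development, chd7 had 156 CPM in the adult library, 100.3 and 190.4 CPM in embryonic basal and 198 and 161 CPM in periderm cells and did not pass (log2 fold change 0.10, adjusted p = 0.903).

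The chd2 call against embryonic basal cells held in 3 of 11 alternatives. It was lost without each embryonic library (adjusted p = 0.0908 and 0.152 without embryonic basal replicates 1 and 2, 0.0679 and 0.0646 without periderm replicates 1 and 2) and on total counts (adjusted p = 0.304). With 23.9 CPM in the adult library, chd9 passed against periderm (4.03-fold higher, adjusted p = 0.0499) and in 4 of 11 alternatives. Its call was lost without periderm replicate 1 (adjusted p = 0.0683) or 2 (adjusted p = 0.135) and without embryonic basal replicate 1 (adjusted p = 0.0642), and on total counts (adjusted p = 0.253). Against periderm, the chd4b call was lost without periderm replicate 2 (adjusted p = 0.0818), and the chd2 call without periderm replicate 1 (adjusted p = 0.0759) or 2 (adjusted p = 0.0589) and on total counts (adjusted p = 0.164).

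Shares within a library do not depend on the scaling between libraries, and 8 pairs of related members were compared in this way per kilobase. The pairs were chosen after their values were seen, so the shares are a description. The share of smarca2 in smarca2 plus smarca4a was 69.1% in the adult library, 1.28% and 1.27% in embryonic basal and 0.942% and 0.999% in periderm cells. The share of ezh1 in the ezh pair was 65.1% in the adult library, 5.18% and 8.75% in embryonic basal and 2.88% and 3.37% in periderm cells. For chd3 of chd3 plus chd4a the shares were 57.4% in the adult library and at or below 0.657% in the 4 embryonic libraries, where chd3 had too few reads for a test. In each of these pairs the first gene led in the adult library and the other in every embryonic library. For hdac4 of hdac4 plus hdac1 they were 52.8% in the adult library and between 0.532% and 0.821% in the embryonic ones. Set against cbx2, cbx8b made up 90.1% in the adult library and between 4.55% and 13.8% in the embryonic ones. These pairs showed the same change of leading gene, which holds within a pair and not within its class. Per kilobase, cbx7a had 263 CPM in the adult library, above cbx8b (36.0) and cbx2 (3.94). The NuRD motor gene chd4b, left out of its pair, had 1.30 CPM per kilobase there, against 3.48 for chd3 and 2.58 for chd4a. Set against dnmt3ba, dnmt3ab made up 94.7% in the adult library and between 13.8% and 32.7% in the embryonic ones. The hmgb2 and kdm6b pairs kept their leading gene: hmgb2b made up 22.7% of the hmgb2 pair in the adult library and between 24.8% and 29.3% in the embryonic ones, and kdm6ba 81.9% of the kdm6b pair in the adult library and between 53.1% and 65.8% in the embryonic ones.

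**Figure D3:**
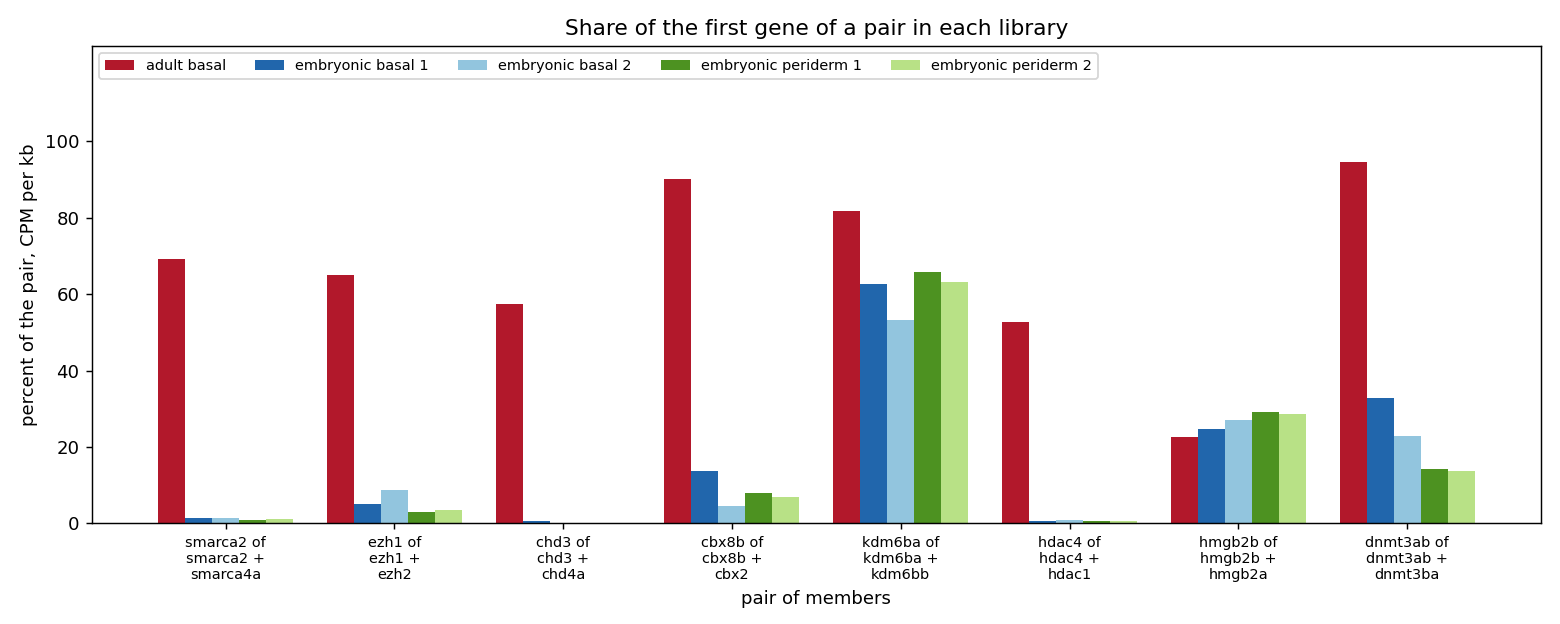
Share of the first gene in the summed level of a pair, in percent of CPM per kilobase, with 1 bar per library and the adult library first. The adult bar stands at 52.8% or more for 7 of the 8 pairs, and in 6 of those 7 the embryonic bars stay at or below 32.7%; hmgb2b (22.7% in the adult library) differs least across the libraries. The pairs were chosen after their values were seen, and chd3 entered the test through the adult library alone.

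Between the embryonic populations, no chromatin regulator passed the test. None of the 107 tested members was called higher or lower in embryonic basal than in periderm cells by edgeR's quasi-likelihood test, beside 3.48% of all 15585 genes tested (0.95% higher and 2.53% lower). At an unadjusted p under 0.05, 5 were higher and 3 lower, beside 8.18% and 10.4% of all genes (18.5% in either direction). DESeq2 called 1 member, cbx7a, higher (adjusted p = 0.016) and none lower, beside 3.57% and 5.38% of all genes (8.95% in either direction). The median log2 fold change was -0.10 over the members and -0.02 over all genes, and the median absolute change 0.35 against 0.53. A difference that misses the threshold does not show equal levels: 21 of the 107 members stood over 2-fold apart between the embryonic basal replicates and 14 between the periderm replicates.

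The 8 members under an unadjusted p of 0.05 were named after their values were seen. The lowest adjusted p belonged to dnmt3bb.1 (log2 fold change of embryonic basal over periderm 1.40, SE 0.43, adjusted p = 0.126), and both embryonic basal libraries lay above both periderm libraries. The same order of libraries held for dnmt3ab (1.03, SE 0.39, adjusted p = 0.211) and hmga2 (1.01, SE 0.41, adjusted p = 0.245). It also held for kdm2ba, a demethylase gene whose mammalian relative recruits a Polycomb complex to unmethylated DNA, with 92.03 and 57.9 CPM in embryonic basal and 31.6 and 42.3 CPM in periderm cells (1.00, SE 0.40, adjusted p = 0.233). For cbx7a the log2 fold change was 2.72 (SE 1.05, adjusted p = 0.214), with embryonic basal replicate 2 inside the range of the periderm libraries. It was called without embryonic basal replicate 2 (log2 fold change 3.63, adjusted p = 0.00285). Negative values belonged to cbx3b, with 16.3 and 11.3 CPM in embryonic basal and 40.1 and 23.5 CPM in periderm cells (-1.22, SE 0.47, adjusted p = 0.211), and to hmgb3b (-1.20, SE 0.42, adjusted p = 0.170). The last was hdac5, with 1.51 and 1.03 CPM in embryonic basal and 2.92 and 7.67 CPM in periderm cells (-2.11, SE 0.82, adjusted p = 0.221).

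Chromatin genes outside the symbol rule were described in the same way. Of 130 genes in 12 lists (PRC1, PRC2 accessory, heterochromatin methyltransferases, COMPASS and related SET genes, acetyltransferases, BET readers, methylation readers, sirtuins, other BAF, NuRD, ISWI and histone chaperone genes), 126 were in the table. Against embryonic basal cells 121 were tested, with 6 higher (4.96%) and 26 lower (21.5%), or 4 higher and 47 lower on total counts (29.8% of all genes called there). Against periderm 9 were higher (7.44%) and 32 lower (26.4%), or 2 higher and 52 lower on total counts (38.2% of all genes called there). On total counts the medians of all genes were -1.38 against embryonic basal cells and -1.66 against periderm. None of the 117 tested between the embryonic populations was called. The median against embryonic basal cells was -1.08 over the lists and -0.59 over all genes. The partner that brings Dnmt1 to replicating DNA, uhrf1, had 17.9 CPM in the adult library, 103 and 126 CPM in embryonic basal and 126 and 118 CPM in periderm cells (6.38-fold lower than embryonic basal, log2 fold change -2.67, SE 0.53, adjusted p = 0.0115), the same direction as dnmt1. The heterochromatin methyltransferase gene suv39h1b had 1.84 CPM in the adult library, 37.8 and 48.2 CPM in embryonic basal and 48.9 and 36.2 CPM in periderm cells (23.1-fold lower, adjusted p = 0.00659). From the same list, setdb1b had 0 counts in the adult library and between 38.4 and 61.3 CPM in the embryonic ones (adjusted p = 0.00319). The large subunit gene of the replication-coupled chaperone CAF-1, chaf1a, had 2.75 CPM in the adult library, 57.3 and 70.4 CPM in embryonic basal and 107 and 70.8 CPM in periderm cells (23.0-fold lower, adjusted p = 0.00532). The BAF subunit gene actl6a, known from progenitor cells in mammals, was 40.3-fold lower (adjusted p = 0.00553).

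Among the 6 genes of these lists that were higher in adult than in embryonic basal cells were brd2a, mbd2, ep300a, baz1a and gatad2b. The BET reader gene brd2a, whose product binds acetylated histones, had 751 CPM in the adult library, 141 and 55.5 CPM in embryonic basal and 36.3 and 51.4 CPM in periderm cells (7.63-fold higher than embryonic basal, log2 fold change 2.93, SE 0.59, adjusted p = 0.0118). The methylated DNA reader gene mbd2 had 263 CPM in the adult library, 64.2 and 14.9 CPM in embryonic basal and 9.31 and 13.8 CPM in periderm cells (6.64-fold higher, adjusted p = 0.0314). The acetyltransferase gene ep300a had 48.7 CPM in the adult library, 8.13 and 7.03 CPM in embryonic basal and 6.93 and 12.4 CPM in periderm cells (6.41-fold higher, adjusted p = 0.0152). In all of these the adult library lay above every embryonic one. The ISWI partner gene baz1a was 4.92-fold higher (adjusted p = 0.0101) and gatad2b of NuRD 3.10-fold (adjusted p = 0.0368). The mbd2 call was lost without periderm replicate 1 (adjusted p = 0.0518) or 2 (adjusted p = 0.0508) and with rows summed (adjusted p = 0.0518). That of gatad2b was lost without embryonic basal replicate 1 (adjusted p = 0.124) or 2 (adjusted p = 0.0675) and on total counts (adjusted p = 0.253).

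**Figure D4:**
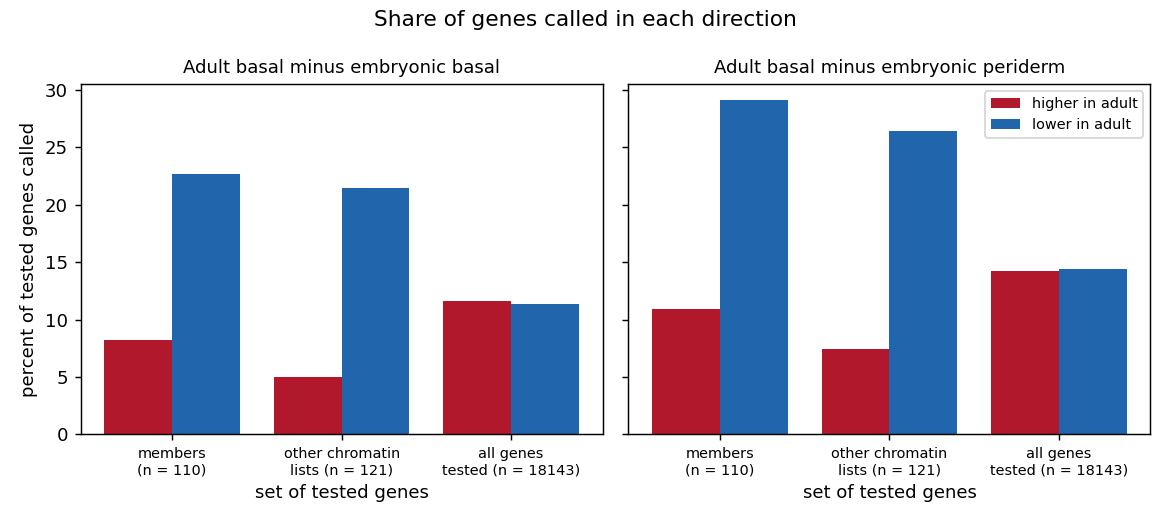
Percent of tested genes called higher (red) or lower (blue) in the adult library, against embryonic basal cells on the left and periderm on the right, for the members, the other chromatin lists and all genes tested. The members' share called lower (22.7% and 29.1%) stands above that of all genes (11.4% and 14.4%), and their share called higher (8.18% and 10.9%) below it (11.6% and 14.2%). Genes that entered the test through the adult library alone can be called only higher, and their part in these shares was not counted.

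Proliferation genes were lower in the adult library as well. Of 18 such genes 15 were lower in each adult comparison and none higher, with a median log2 fold change of -3.54 against embryonic basal cells and -3.94 against periderm, and none was called between the embryonic populations (median -0.43). Beside 11.4% and 14.4% of all genes called lower, the 15 made up 83.3% of the proliferation genes. Their summed level was 654 CPM in the adult library, 3484 and 3659 CPM in embryonic basal and 5734 and 3704 CPM in periderm cells. The cycling cell marker gene mki67 had 5.05 CPM in the adult library, 163 and 224 CPM in embryonic basal and 288 and 213 CPM in periderm cells (38.2-fold lower than embryonic basal, log2 fold change -5.25, SE 0.69, adjusted p = 0.00256). Periderm replicate 1 had the highest sum of proliferation genes and the highest summed Hmgb level (6596 CPM, against 488 in the adult library and 3335 to 4787 in the other embryonic libraries). That library was also the highest for the Hmga, Hmgn, HP1 Cbx, PRC2, Hdac and Smarc sums, and not for those of the remaining classes. The share of cycling cells was not measured, and its part in the levels of the members was not tested.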

How the data were processed

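Sorted epidermal cells were profiled by RNA-seq, and the authors deposited 1 table of raw read counts per transcript row, with row lengths; the RPKM and TPM columns beside them were not used. HISAT2 2.2.1, featureCounts 2.0.3 and the build GRCz11 are named without roles, per the submitters' processing notes; how strand and multi-mapping reads were treated is not given in the sources used here. Each gene was represented by its row with the highest mean count, and CPM were scaled by TMM factors (0.620 for the adult library, 0.960 to 1.19 for the embryonic ones). edgeR 4.0.16 in R 4.3.3 (filterByExpr by group, quasi-likelihood test, Benjamini-Hochberg over all genes, threshold 0.05) was fitted on the 4 embryonic libraries for the embryonic comparison and on all 5 libraries for the adult ones. The standard error (SE) of a log2 fold change is its size divided by the root of F. A group at 0 counts was set to 3 counts to give a bound, and groups of 1 to 3 counts got a 95% Poisson interval. That interval took the mean of the higher group as fixed and does not cover the spread between libraries. The steps were tested on simulated data, in which all libraries shared a mean profile apart from the genes changed on purpose. Such data do not test the scaling between libraries as unlike as the adult and embryonic ones. Alternatives were RLE factors, total counts, 2 filters (1 count, or 5 CPM in 2 libraries), summed rows, DESeq2 1.42.0, each embryonic library left out, the replicate number as a block and, chosen after seeing the data, edgeR's older quasi-likelihood fit.

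Members and lists were chosen with earlier results of these data known. Named members were those called whose higher group had at least 10 CPM (up to 12 per direction and comparison), the 3 highest of each class and paralogues of called members; from other lists, up to 3 called genes per direction. A gene named outside that rule was chosen after its values were seen. Single results for a few of the genes counted are not reported here.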

Additional observations from a re-analysis of the deposited data

How the results depend on the processing

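Of the members called in the report, 16 of 34 against embryonic basal cells and 22 of 44 against periderm were called in each alternative. How many of all genes held in each alternative was not counted. On total counts, 4 members were higher and 50 lower against embryonic basal cells, and 7 higher and 54 lower against periderm. Over all genes, 29.8% and 38.2% were called in that setting. It applies no scaling factor, and the median of all genes was -1.38 and -1.66, shifts of -0.78 and -0.93. How all genes split by direction there is not given. Leaving out 1 embryonic library gave 6 to 9 members higher and 18 to 30 lower against embryonic basal cells, and 6 to 16 higher and 21 to 32 lower against periderm. Between the embryonic populations DESeq2 called 1 member higher, and leaving out 1 library gave 0 to 1 higher and 0 lower, while the count over all genes was 543 in the report, 1395 with DESeq2, 202 with rows summed, 341 with the older fit, and 73 to 943 with 1 library left out (73 without periderm replicate 1). With the replicate block, 0 members were called, and 610 genes in all. Deviations of same-numbered embryonic libraries from their group means correlated at r = 0.24 over 18143 genes, with 2 pairs, and no label ties the numbers to a shared source. Some members not called in the report passed in alternatives. Against embryonic basal cells these were, among others, hmgn2 in 3 of 11 and ezh2 and prmt5 in 2 of 11 each. On total counts alone, hdac3, kdm1a, smarcc1a and smarcb1a were called lower in both adult comparisons. Signs turned for members that were not called. On total counts the log2 fold change against embryonic basal cells was -0.74 for chd7, -0.46 for kmt2d, -0.0789 for tet2 and -0.71 for kdm6bb, and against periderm -0.18 for kmt2d and -0.0591 for kdm6bb. With 1 embryonic library left out, it ranged against embryonic basal cells between -0.33 and 0.64 for chd7, -0.83 and 0.0592 for hmgb1a and -0.31 and 0.70 for kdm6bb, the sign turning without embryonic basal replicate 1. Against periderm it ranged between -0.74 and 0.0258 for cbx3b (positive without periderm replicate 1) and between -0.50 and 0.0918 for kdm5c (positive without periderm replicate 2). The cause of these changes was not tested. Low counts in the adult library limit what can be seen, since the median member had 36 counts there. Gene counts summed to 3521594 in that library and to between 4621996 and 7504115 in the embryonic ones. Members took 0.346% of gene counts in the adult library and between 1.44% and 2.25% in the embryonic ones. The part of depth in the low counts was not tested. The planned description of promoter motifs was not run, as promoter sequences were not used here.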
